A study of Mus musculus with 4 samples.

Results

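Cells with the transcripts of layer 6 corticothalamic neurons were followed in the mouse prefrontal cortex from the first postnatal days to adulthood. The cells were chosen by measured values: a cell had to hold at least 1 UMI (unique molecular identifier, a counted mRNA molecule) of Neurod2 or Neurod6, fewer than 1 UMI of Gad1 and Gad2 per 10000 UMIs of the cell, at least 3 UMIs per 10000 of Foxp2, Syt6 and Hs3st4 together with at least 2 of these 3 genes detected, and no UMI of Ctgf, a gene of layer 6b. Of 59918 cells that passed the cell filter, 7465 met this rule and are called the gated neurons here. They came from 4 single-cell libraries of C57BL/6J mice, 1 each from P1 (2185 gated neurons), P4 (2793), P10 (1752) and P84, called adult (735). The labels name no treatment or mutation, and the methods give 2 females per age. No label ties a cell to a mouse, so every age is 1 sample, no difference between ages could be tested, and the intervals below cover counting error only. In the lists of 4 values below, the order is P1, P4, P10 and adult.

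The P1 library stood apart from the other libraries. Its label gives P1 but its file header gives the library name P0, so the files do not agree on its age, and it is called P1 here after its label. The header also names a later version of the processing pipeline and states that intronic reads were kept, which the other headers do not state. UMIs of Y-linked genes were found in 1265 of the P1 gated neurons (57.9%) but in at most 4 in any later library, and 514 P1 gated neurons held UMIs of both Y-linked genes and Xist, so the P1 library goes against the stated sex. Results that involve P1 are therefore given beside the comparison of P4 with the adult. The gated neurons had a median of 24253, 10202, 19061 and 16387 UMIs and of 5817, 3919, 5283 and 4773 genes per cell. Between 10 and 323 cell barcodes were shared by any 2 libraries among all cells that passed, and at most 2 among gated neurons.

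Layer 6 corticothalamic neurons are deep cortical projection neurons that send their axons to the thalamus and return cortical output to the nuclei that innervate the cortex. Tbr1, Sox5 and Fezf2 encode transcription factors that set apart deep-layer projection neurons, and Tle4 encodes a co-repressor of layer 6. Of the genes of the rule, Foxp2 encodes a forkhead transcription factor (GRCm38, chromosome 6, 14901349 to 15441977, plus strand), Syt6 a synaptotagmin (chromosome 3, 103575231 to 103645569, plus strand) and Hs3st4 a heparan sulfate sulfotransferase (chromosome 7, 123982869 to 124398989, plus strand). Tle4, which the rule did not use, lies on the minus strand of chromosome 19 (14448150 to 14598051). All 4 are protein-coding genes, and the positions cover the whole gene.

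The share of gated neurons was highest at P1 and lowest in the adult, although in the retained clusters described below P1 stood under P4 and P10, at 12.7, 14.2, 15.5 and 7.87% of Neurod-positive, Gad-low cells, and stood above them at 17.5% with a P1 cluster led by Dkk3 and Otof added. They made up 24.03% of the Neurod-positive, Gad-low cells at P1 (95% Clopper-Pearson interval 23.2 to 24.9), 20.04% at P4 (19.4 to 20.7), 19.0% at P10 (18.2 to 19.8) and 10.2% in the adult (9.51 to 10.9). Of all cells that passed the filter they were 18.9, 14.7, 11.5 and 5.22%. The adult share rested on the Ctgf condition: with Ctgf-positive cells kept, the shares of Neurod-positive, Gad-low cells were 26.2, 22.3, 24.3 and 18.6%. Ctgf removed 193, 321, 495 and 602 cells that otherwise met the rule, or 8.12, 10.3, 22.0 and 45.0% of them. After each cell was thinned to 2000 UMIs, a Ctgf UMI remained in 2.27, 3.12, 5.92 and 12.4% of the cells that met the rest of the rule, against 0.342, 0.532, 0.779 and 1.25% of glutamatergic cells with a gate score under 1 and 0, 3.80, 0.743 and 1.43% of microglia. The microglia were 35, 79, 824 and 1402 cells with a median of 25210, 8815, 4714 and 4530 UMIs.

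The cells that Ctgf removed were not alike at the 4 ages. Nxph4, a neurexophilin gene used as a marker of layer 6b, was detected in 121 of 193 of them at P1 (62.7%) but in 29 of 602 in the adult (4.82%). Their Nxph4 level was 194, 185, 67.3 and 13.2 CPM (UMIs per 1000000 after mitochondrial and ribosomal protein genes were left out), against 19.8, 31.5, 15.3 and 2.28 CPM in the gated neurons. Rprm, a gene of layer 6 corticothalamic neurons, ran the other way in the Ctgf-positive cells, at 115, 182, 374 and 503 CPM. Their Tle4 was 882, 641, 557 and 437 CPM.

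The gate score, the summed UMIs of Foxp2, Syt6 and Hs3st4 per 10000, had a median of 13.7, 12.5, 12.8 and 9.50 in the gated neurons. Hs3st4 was detected in 98.8, 98.7, 99.4 and 99.6% of them, Syt6 in 94.1, 93.1, 96.5 and 88.0% and Foxp2 in 77.7, 72.4, 90.0 and 87.1%, and all 3 in 70.6, 64.2, 86.0 and 74.7%. The lowest scores inside the threshold were 3.00, 3.00, 3.00 and 3.01, and the highest just outside it were 2.99, 2.99, 3.00 and 2.99. Between 3 and 4 lay 116, 158, 60 and 34 gated neurons, while 141, 205, 71 and 60 cells with at least 2 of the genes lay between 2 and 3. A further 238, 248, 127 and 101 cells reached 3 with 1 gene alone and stayed out.

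**Figure D1:**
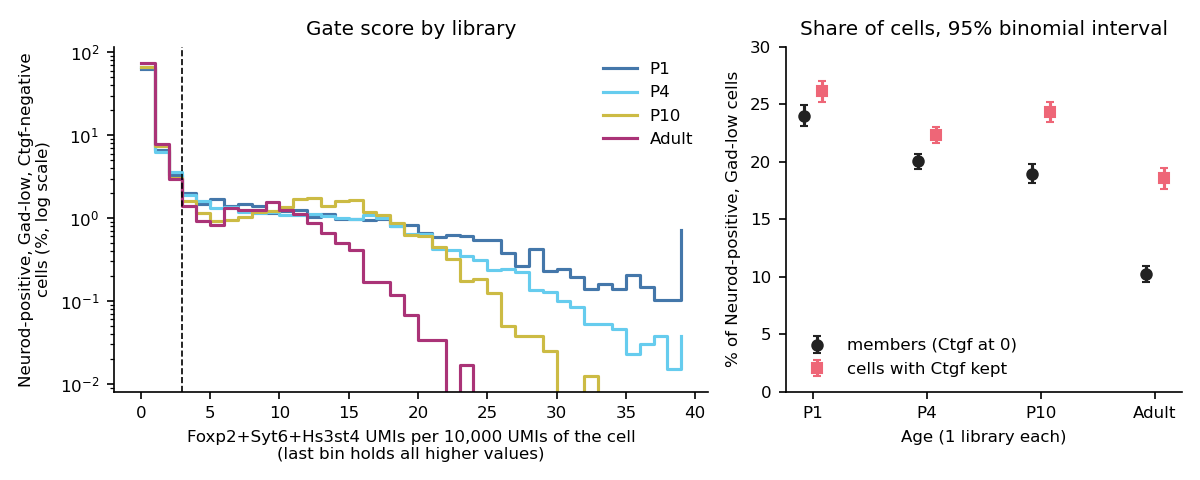
Left, the gate score per 10000 UMIs (x axis) against the percentage of Neurod-positive, Gad-low, Ctgf-negative cells (log y axis) in each library, with the threshold of 3 as a dashed line. Right, the share of Neurod-positive, Gad-low cells that met the rule with Ctgf at 0 and with Ctgf-positive cells kept, with 95% binomial intervals. The 2 series part most in the adult, at 10.2 and 18.6%.

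Markers that the rule did not use were checked next. Tle4 was at 919, 723, 606 and 409 CPM in the gated neurons and at 25.7, 15.7, 19.1 and 28.7 CPM in the other glutamatergic neurons of the same libraries (5178, 8443, 4914 and 3752 cells). These were cells with a gate score under 1, no Ctgf UMI, Gad1 and Gad2 under 1 per 10000, and Neurod2 and Neurod6 at 2 or more per 10000. That Neurod minimum is stricter than the 1 UMI asked of the gated neurons. In microglia, Tle4 was at 181, 135, 129 and 99.9 CPM. This was under the gated neurons but above the other glutamatergic neurons in each library. How much of the microglial level is free RNA was not tested. In cells thinned to 2000 UMIs, Tle4 was found in 72.7, 70.6, 65.8 and 52.1% of gated neurons, 4.69, 2.98, 5.54 and 7.38% of other glutamatergic neurons and 25.7, 13.9, 17.6 and 13.8% of microglia. Tbr1 was at 507, 469.8, 439 and 428 CPM in gated neurons against 184, 121, 109.5 and 164 CPM in the others. Of the markers Foxp2, Syt6, Hs3st4 and Tle4, only Tle4 lies outside the rule, and it was present in every library. The presence of the others was set by the rule. Tle4 was also high in layer 6b cells, described below. Ntsr1, another gene of corticothalamic neurons, was less than 2-fold above the other glutamatergic neurons in each library. It was at 59.8, 54.9, 43.5 and 22.8 CPM against 48.0, 41.8, 28.6 and 11.7 CPM.

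Clustering the gated neurons within each library split off cells led by genes of other classes. The class names given to the clusters were set after their leading genes had been seen. Clusters that were not assigned to another class are called the retained clusters here. Of these, 1 at P1, 2 at P4 and 1 at P10 still had 1 or 2 markers of another class at 50 CPM or more and at least 2-fold above the mean of the other clusters, such as Otof of the intratelencephalic list. Several were led by haemoglobin genes of blood, such as Hba-a1 and Hbb-bs, and markers of blood and vessels were not counted by cluster. The retained clusters held 1151, 1985, 1431 and 567 gated neurons, or 52.7, 71.1, 81.7 and 77.1% of all gated neurons. The P1 value leaves out a cluster led by Dkk3 and Otof, while the P4 value includes one led by Igfbpl1 and Otof. With both included, the P1 and P4 shares were 73.0 and 71.1%, and with both left out they were 52.7 and 55.6%, so no step from P1 to P4 is read from them. Clusters led by genes of layer 5 near-projecting neurons, such as Tshz2, Trhr and Lypd1, held 160, 366, 51 and 52 cells. Clusters led by genes of intratelencephalic neurons held 255, 260, 133 and 52 cells, of which the doublet caller Scrublet marked 134, 202, 74 and 17. Clusters led by glial or progenitor genes held 41, 103, 137 and 64 cells, with 13, 77, 93 and 54 marked. A cluster led by Pou3f1, a gene of layer 5 pyramidal tract neurons, held 118 cells at P1 and 79 at P4. Over all gated neurons Scrublet marked 7.51, 11.7, 9.93 and 11.4%, and these cells were kept unless stated.

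In the P1 library 2 clusters could not be given a class. The smaller, led by Igfbp4 and Ntf3, held 16 cells. The larger held 444 cells (20.3%) led by Dkk3 and Otof, with Tle4 at 1341 CPM, above the 906 and 1093 CPM of the 2 largest P1 clusters, and Tshz2 at 212 CPM. The P4 cluster led by Igfbpl1 and Otof held 431 cells, with Tle4 at 1085 CPM and Tshz2 at 23.4 CPM. In these clusters the values describe the cells that formed them and were not tested.

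Among the retained clusters, 1 in each library had the neuropeptide gene Nts among its leading genes. These were matched by Nts alone, and whether they are the same cells was not tested. They held 152, 469, 88 and 128 cells, and their Nts level was 2836, 970.1, 754 and 66.9 CPM. Ikzf2 was also among the leading genes at P1, at P10 and in the adult but not at P4, where Prdm8, Slc17a8 and Kitl were. At P1 and P4 another cluster was led by Kitl, the gene of the ligand of the receptor Kit. It held 487 and 402 cells with Kitl at 1225 and 1220.2 CPM, against 687 and 1087 CPM in the Nts clusters.

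**Figure D2:**
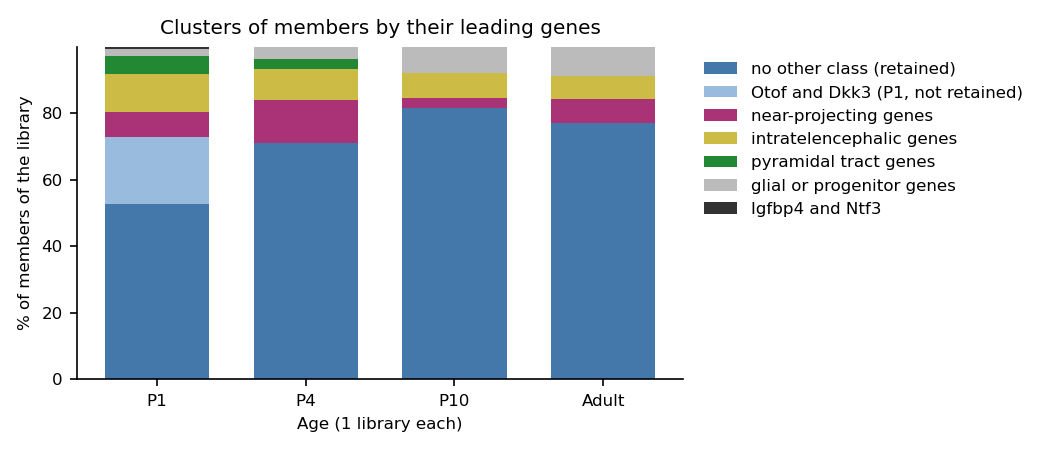
Share of the gated neurons (members) of each library (y axis, %) in clusters of each class, by age (x axis, 1 library each). The retained clusters accounted for 52.7, 71.1, 81.7 and 77.1% of the gated neurons, and the P1 cluster led by Otof and Dkk3, which is not among them, for 20.3% at P1.

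Genes outside the rule separated the gated neurons from other glutamatergic neurons in every library. These differences are a description, because the cells were chosen by their own transcripts. Of 12 genes known from corticothalamic neurons but not used in the rule, 11, 10, 12 and 11 reached 20 CPM in either group. Of these, 10, 8, 10 and 10 were at least 2-fold higher in gated neurons and none was at least 2-fold lower. Over all genes, 3.35, 2.45, 2.69 and 2.64% were at least 2-fold higher and 1.99, 2.29, 3.82 and 4.34% at least 2-fold lower. In all 4 libraries, 53 of 6137 genes were at least 2-fold higher and 48 at least 2-fold lower.

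Ranked by the smallest ratio over the 4 libraries, Nxph3 and Tle4 came first. Nxph3, which encodes a secreted ligand of neurexins, was at 115, 207, 219 and 169 CPM in gated neurons and 2.85, 5.32, 4.19 and 6.21 CPM in the others, so no library of one group reached a library of the other. Ppp1r1b, the gene of the dopamine-regulated phosphatase inhibitor DARPP-32, was at 99.7, 117, 112 and 126 CPM against 9.85, 9.46, 11.5 and 22.2 CPM. Grik3, a kainate receptor subunit, was at 230.1, 203, 210.1 and 248 CPM against 22.3, 17.0, 35.1 and 60.0 CPM. Both were higher in gated neurons at every age. Chrna4, a nicotinic acetylcholine receptor subunit, was higher at each later age in the gated neurons, at 25.1, 68.6, 139 and 144 CPM, and stayed lower in the others at 5.58, 16.3, 16.9 and 28.7 CPM. In the retained clusters Chrna4 was at 32.1, 73.4, 154 and 153 CPM, so it was level there from P10 to the adult. Zfpm2 and Bcl11b, both encoding transcriptional regulators, were at 329, 159.5, 126 and 119.6 CPM and at 664, 341, 229.6 and 234 CPM against 79.2, 35.5, 19.2 and 16.6 CPM and 139, 103, 73.1 and 73.4 CPM. Sema5a, a semaphorin, stood at 132, 148, 398 and 619.9 CPM against 35.5, 23.5, 26.4 and 13.8 CPM, so its excess was the widest in the adult, at a log2 ratio of 5.48.

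Some genes of upper-layer and intratelencephalic neurons were lower in gated neurons. Of 10 listed genes of intratelencephalic neurons, 6, 8, 10 and 9 reached 20 CPM in either group, of which 3, 5, 6 and 5 were at least 2-fold lower, against 1.99, 2.29, 3.82 and 4.34% of all genes. Otof was at least 2-fold higher at P4 and P10. Cux2 was at 13.8, 8.04, 5.63 and 6.15 CPM in gated neurons against 59.3, 39.8, 45.2 and 52.9 CPM in the others. Lhx2, a LIM homeobox gene, was at 51.4, 40.8, 15.5 and 10.9 CPM against 201, 208, 113 and 66.4 CPM, and C1ql3, which encodes a secreted synaptic organiser, at 9.89, 28.2, 66.9 and 142 CPM against 61.2, 147, 554 and 1415 CPM. All 3 were lower in gated neurons in each library, and C1ql3 was higher at each later age in both groups. Tle1 and Tle3, which encode co-repressors of the same family as Tle4, were at 15.4, 9.53, 4.43 and 5.65 CPM and 12.6, 9.10, 5.36 and 2.86 CPM in gated neurons, against 67.0, 40.0, 27.1 and 30.5 CPM and 67.3, 53.2, 44.3 and 22.5 CPM in the others. These 2 genes and Tle4 were picked from the lowest and the highest ratios, so they say nothing of the family as a whole. Clusters led by intratelencephalic genes, with C1ql3, Lhx2 or Cux2 among their leading genes, were left out of the retained clusters. Lower values of such genes in the retained clusters therefore follow by construction. The retained clusters held less of each of these low genes, with C1ql3 at 0.600, 5.19, 18.4 and 48.7 CPM, Lhx2 at 19.0, 13.2, 4.71 and 3.70 CPM and Cux2 at 5.32, 4.13, 2.47 and 3.48 CPM. Tle1 was there at 3.12, 3.63, 1.53 and 2.47 CPM and Tle3 at 2.84, 3.02, 1.96 and 1.23 CPM.

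Layer 6b cells, defined here by UMIs of both Ctgf and Nxph4 (175, 299, 240 and 45 cells) and cells with Cux2 (1153, 1268, 892 and 769 cells) were set beside the gated neurons. Tle4 was at 815, 586, 500.2 and 421 CPM in layer 6b cells and 26.8, 11.4, 15.5 and 28.4 CPM in Cux2 cells. Rprm was higher in gated neurons than in both in each library, with 341, 444, 878 and 707 CPM in gated neurons, 56.7, 87.9, 152 and 204 CPM in layer 6b cells and 76.4, 200.4, 76.9 and 14.5 CPM in Cux2 cells. Syt6 and Hs3st4 belong to the rule, so their values are a description. Syt6 in layer 6b cells was at 209.7, 89.1, 127 and 164 CPM against 653, 578, 509.6 and 226 CPM, while Hs3st4 was near the level of the gated neurons, at 706, 489, 522 and 653 CPM against 708, 560.1, 644 and 602 CPM. Nxph3 was higher in layer 6b cells than in gated neurons in every library, at 269, 420.4, 449.9 and 349.6 CPM. These classes were set by measured genes, and layer 6b cells had more UMIs per cell at every age, with medians of 44904, 25837, 29403 and 18713.

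**Figure D3:**
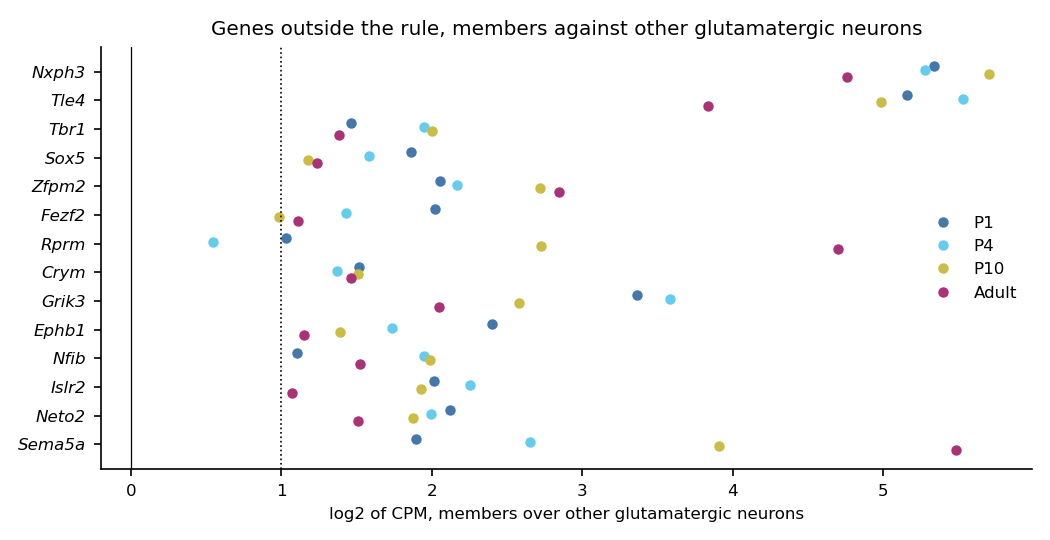
Log2 ratio of CPM in gated neurons (members) over other glutamatergic neurons (x axis) for genes outside the rule, with 1 point per library coloured by age. Nxph3 and Tle4 have the highest minima over the libraries, with Nxph3 at 5.34 at P1 and 4.76 in the adult.

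The transcripts of the gated neurons differed most between P10 and the adult among neighbouring ages. A gene was counted when it differed at least 2-fold between 2 ages and reached 20 CPM at either. From P1 to P4, 297 of 8113 genes were higher (3.66%) and 595 lower (7.33%). From P4 to P10, 345 of 7659 were higher (4.5%) and 312 lower (4.07%). From P10 to the adult, 646 of 7567 were higher (8.54%) and 650 lower (8.59%). The comparison without the P1 library, P4 with the adult, had 1150 of 8029 genes higher (14.3%) and 1459 lower (18.2%). In either direction these came to 11, 8.58 and 17.1% in the 3 steps and 32.5% between P4 and the adult. Between P1 and the adult 16% were higher and 27.2% lower, or 43.2% in all. These percentages are the background for the counts of gene groups below, and the median gene stood at a log2 difference of -0.18 from P4 to the adult. Of the 10 largest falls from P1 to P4, Eif2s3y and Ddx3y are Y-linked, and Gm20388 (158 CPM at P1) is not listed at P4, so in that step age cannot be told apart from how the P1 library differed.

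Identity genes went in both directions with age. The rule's genes Foxp2 and Hs3st4 were at 214, 173, 207 and 197 CPM and 708, 560.1, 644 and 602 CPM, without a steady order by age, while Syt6 was at 653, 578, 509.6 and 226 CPM, lowest in the adult. Outside the rule, Tbr1 was a little lower at each later age, between 507 and 428 CPM over all gated neurons. In the retained clusters Tbr1 was at 671, 603, 482 and 477 CPM. Its P1 value was 617 CPM with the P1 cluster led by Dkk3 and Otof added. Sox5 and Fezf2 were highest at P1 and lower at each later age, at 421, 189, 118 and 78.2 CPM and 587, 425, 304 and 223 CPM. The log2 difference from P4 to the adult was -1.27 (95% interval -1.37 to -1.17) for Sox5 and -0.82 (95% interval -0.87 to -0.78) for Tle4. Rprm ran the other way, from 341 at P1 to 878 CPM at P10 and 707 in the adult. Crym, which encodes a thyroid hormone binding protein, peaked at P10 (135, 242, 515 and 255 CPM). Of the 12 identity genes, 3 were at least 2-fold higher (Crym, Thsd7b and Cdh18) and 0 lower from P4 to P10, against 4.5% of all genes higher. Thsd7b and Cdh18 were under 20 CPM at P4 and entered through P10, so they had to be higher there. From P10 to the adult 0 were higher and 2 lower (Crym and Ephb1). The Crym calls lay near the limit, since its log2 difference from P4 to P10 was 0.93 in the retained clusters and that from P10 to the adult came under 2-fold in 7 alternative settings, at its smallest -0.90, and Ephb1 came to -0.997 with Ctgf-positive cells kept. Of 11 measured from P4 to the adult, 1 was higher (Cdh18) and 3 were lower (Sox5, Ntsr1 and Ephb1), against 14.3 and 18.2% of all genes. Cdh18 entered here through the adult, so it had to be higher there. With the P1 library, 0 of 11 were higher and 3 lower from P1 to P4, against 3.66 and 7.33% of all genes. From P1 to the adult 1 of 11 was higher and 6 were lower (median log2 difference -1.17), against 16 and 27.2% of all genes.

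Transcription factor genes of projection neurons were more often at least 2-fold lower than higher in the adult against P4. Of 21 measured, 9 were at least 2-fold lower and 0 higher, with a median log2 difference of -0.82, against 18.2% of all genes lower. Sox4 and Sox11, SoxC factors of immature neurons, differed most, at 2159, 909, 234 and 43.4 CPM and 1877, 799, 116 and 42.9 CPM. The log2 difference from P4 to the adult was -4.39 (95% interval -4.52 to -4.26) for Sox4 and -4.22 (95% interval -4.35 to -4.09) for Sox11, and it was -3.74 and -4.90 in other glutamatergic neurons. Nfib, Nfix, Zbtb18 and Neurod6 were also lower at each later age, with Neurod6 at 1579.9, 1307, 768 and 328 CPM. Neurod6 belongs to the rule, so its values are a description. Lmo3 and Foxp1 stayed close to level, at 301, 316, 366 and 334 CPM and 188, 169, 158 and 178 CPM.

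Most genes of axon growth and the immature cytoskeleton were lower after P10. Of 19 measured, 15 were at least 2-fold lower and 0 higher in the adult than at P10 (median log2 difference -2.31, against 8.59% of all genes lower), while from P1 to P4 1 was higher and 0 lower (median 0.48) and from P4 to P10 0 was higher and 1 lower (median -0.39). Tubb2b, a tubulin of growing neurons, was at 3469, 3908, 2106 and 23.9 CPM, a log2 difference of -6.46 (95% interval -6.63 to -6.29) from P10 to the adult. Dpysl3, of the collapsin response mediator family, was at 2383, 3540.4, 2303 and 100.4 CPM, Marcksl1, which encodes a substrate of protein kinase C that binds actin, at 1747, 1819, 1491 and 44.3 CPM, and Cd24a, a surface glycoprotein gene, at 935, 1236, 712 and 17.0 CPM. Each of the 4 was at least 20 times lower in the adult than at P10. Gap43, the growth-associated protein gene of axon terminals, was higher at P4 and P10 than at P1 and lowest in the adult, at 1950.4, 4751, 5312 and 1071 CPM. Dcx, which encodes a microtubule protein of migrating neurons, was lower at each age, at 1679, 1368, 413 and 46.5 CPM. The genes of the group closest to level from P10 to the adult were Map1b (3071, 3866, 2497 and 2279 CPM) and Kif5c (556, 652, 636 and 666 CPM).

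Axon guidance and adhesion genes were also more often lower than higher in the adult. From P4 to the adult, 20 of 39 were at least 2-fold lower and 2 higher (median log2 difference -1.01), against 18.2 and 14.3% of all genes. Robo1, a Slit receptor gene, was at 374, 142, 78.3 and 41.7 CPM, and Plxna3, a semaphorin receptor gene, at 75.7, 79.2, 42.2 and 9.61 CPM. Islr2 was at 600.1, 744, 455 and 141 CPM, and other glutamatergic neurons had 149, 156, 119.6 and 67.1 CPM, so it was higher in gated neurons at each age. Rgma, the ligand of neogenin, was at 115, 120.3, 130.4 and 16.1 CPM, and Cdh4, a cadherin, at 109, 58.7, 11.1 and 6.99 CPM. The 2 genes of this list that were at least 2-fold higher were Sema3a and Sema3e, both of which encode secreted semaphorins. Both were under 20 CPM at P4 and entered through the adult, so they had to be higher there. Sema5a, which the list does not hold, had a log2 difference of 2.07. Sema3e was at 19.3, 17.8, 40.2 and 95.5 CPM and Sema3a at 29.5, 13.5, 15.7 and 37.4 CPM, a log2 difference from P4 to the adult of 2.42 (95% interval 2.27 to 2.57) and 1.48 (95% interval 1.28 to 1.67). Dcc, the netrin receptor gene, was at 267, 12.2, 10.7 and 10.2 CPM, and its lower level began with the step from the P1 library.

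**Figure D4:**
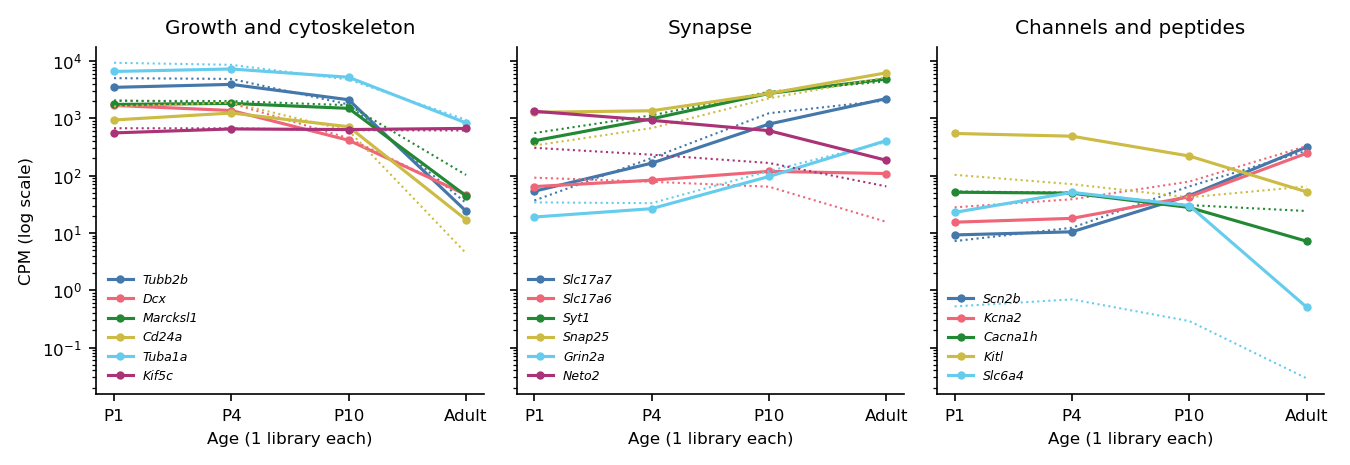
CPM (log y axis) of named genes by age (x axis, 1 library each) in gated neurons (solid lines with points) and in other glutamatergic neurons (dotted lines). Tubb2b, Dcx, Marcksl1 and Cd24a are lower in the adult than at P10 (Tubb2b from 2106 to 23.9 CPM in gated neurons) while Kif5c is near level, and Slc17a7 and Syt1 are higher at each later age (Slc17a7 from 53.4 to 2208 CPM).

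The median gene of synaptic vesicles and transmitter release was higher at the later age in every step. Of 22, 22 and 23 measured, 6, 6 and 6 were at least 2-fold higher in the 3 steps between neighbouring ages, and none was at least 2-fold lower (median log2 differences 0.66, 0.80 and 0.40). From P4 to the adult, 15 of 23 were higher (median 1.27), against 14.3% of all genes. Slc17a7, the vesicular glutamate transporter VGLUT1, was at 53.4, 165, 793 and 2208 CPM, and Syt1, the calcium sensor of release, at 405, 980.2, 2715 and 4846 CPM. Vamp1, a vesicle SNARE, was low until P10 and higher in the adult, at 5.93, 5.41, 9.79 and 65.3 CPM. It was counted only because of its adult level, so it had to be higher there. Slc17a6, the transporter VGLUT2 used in subcortical and young neurons, was in gated neurons at 64.3, 83.1, 119 and 109 CPM while other glutamatergic neurons had 92.0, 78.1, 64.0 and 15.6 CPM. Without near-projecting cells, Slc17a6 was at 59.4, 72.8, 101 and 72.1 CPM. Snap25, a plasma membrane SNARE, was higher in gated neurons than in the others at P1 and P4, at 1274 against 335 and 1352 against 674 CPM. By the adult it was at 6216 against 5231 CPM, so the ratio was smaller.

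Receptor genes differed by subunit. Between P4 and the adult, 10 of 30 genes of glutamate receptors and the postsynaptic density were at least 2-fold higher and 2 lower (median log2 difference 0.33), against 14.3 and 18.2% of all genes. Some of these genes were under 20 CPM at P4 and entered through the adult, so they had to be higher there. Grin2a, an NMDA receptor subunit of mature synapses, was at 18.9, 26.5, 96.5 and 407 CPM, while Grin2b, the subunit of young synapses, was at 971, 763, 628 and 783 CPM. Grin3a, an NMDA subunit that lowers calcium entry, was at 76.8, 169, 170.3 and 30.2 CPM, highest at P4 and P10. In the retained clusters Grin3a was at 30.8, 121, 154 and 19.8 CPM. Camk2a, the synaptic kinase, was at 46.8, 92.6, 269.6 and 909.6 CPM against 33.7, 160.0, 745 and 1296 CPM in other glutamatergic neurons, lower in gated neurons at each age from P4. Neto2, an auxiliary subunit of kainate receptors, was at 1327, 922, 608 and 185 CPM against 305, 232, 166 and 64.9 CPM, and its log2 difference from P4 to the adult was -2.32 (95% interval -2.38 to -2.25). Of GABA receptor and chloride transport genes, 8 of 14 were higher and 0 lower (median 1.114), against 14.3 and 18.2% of all genes. Slc12a5, the chloride exporter KCC2, was at 32.1, 77.0, 162 and 324 CPM, while the importer gene Slc12a2 was at 65.1, 59.4, 54.0 and 73.0 CPM.

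Ion channel genes were more often higher than lower after P10. From P10 to the adult, 19 of 41 were at least 2-fold higher and 2 lower (median log2 difference 0.94, against 8.54% of all genes higher). From P4 to the adult 25 of 41 were higher and 3 lower (median 1.14), against 14.3 and 18.2% of all genes. Scn2b, Kcna2 and Kcnj4, among others, were under 20 CPM at P4 and entered through the adult, so they had to be higher there. Scn2b, an auxiliary subunit of sodium channels, was at 9.21, 10.5, 44.8 and 315 CPM. Scn4b, a further subunit of that kind, was at 0.0367, 0, 0.185 and 58.0 CPM, so it was close to the level of single UMIs until P10. Kcna2, a Kv1 potassium channel of axons, was at 15.4, 17.9, 42.7 and 245 CPM, and Kcnj4, an inward rectifier, at 3.74, 8.70, 56.5 and 148 CPM. The T-type calcium channel genes Cacna1g and Cacna1h ran the other way, at 34.1, 74.6, 68.3 and 16.4 CPM and 51.3, 49.4, 27.8 and 7.16 CPM. From P4 to the adult the log2 difference was -2.18 (95% interval -2.40 to -1.97) for Cacna1g and -2.79 (95% interval -3.12 to -2.47) for Cacna1h. In other glutamatergic neurons Cacna1g was at 20.5, 60.4, 61.8 and 64.5 CPM.

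Receptor genes for neuromodulators and peptides differed from other glutamatergic neurons in both directions. Of 14, 12, 20 and 20 at 20 CPM in either group, 7, 3, 3 and 5 were at least 2-fold higher in gated neurons, against 3.35, 2.45, 2.69 and 2.64% of all genes. In the other direction 3, 3, 7 and 4 were lower, against 1.99, 2.29, 3.82 and 4.34%. Between P4 and the adult, 9 of 18 were at least 2-fold higher and 3 lower (median log2 difference 0.75), against 14.3 and 18.2% of all genes. Some, such as Chrna5, were under 20 CPM at P4 and entered through the adult, so they had to be higher there. Drd1, the D1 dopamine receptor gene, was higher in gated neurons than in other glutamatergic neurons at each age, at 52.5, 64.3, 49.6 and 35.3 CPM against 4.90, 8.39, 13.7 and 20.2 CPM, with the gap narrowest in the adult. Chrna5, the accessory nicotinic subunit of layer 6, was at 2.40, 2.97, 2.52 and 25.3 CPM against 3.30, 2.75, 1.64 and 0.595 CPM, and in cells thinned to 2000 UMIs it was found in 0.366, 0.323, 0.514 and 6.28% of gated neurons and 0, 0, 0 and 0.430% of microglia. Adora1, the A1 adenosine receptor gene, was at 143, 187, 293 and 449.8 CPM against 36.0, 79.3, 128 and 132 CPM. Hcrtr1 and Cckbr, receptors for orexin and cholecystokinin, were among the genes with the largest ratios from P4 to P10, from 1.91 to 24.6 and from 5.11 to 79.1 CPM. In other glutamatergic neurons they were also higher at P10, from 4.31 to 23.0 and from 3.99 to 75.1 CPM. Both were under 20 CPM at P4 and entered through P10, so they had to be higher there. Cnr1, the cannabinoid receptor, was at 276, 155, 52.8 and 55.8 CPM, below the 658, 369, 233 and 338 CPM of the other glutamatergic neurons.

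Some transcripts were present for a limited span of ages. Slc6a4, the plasma membrane serotonin transporter, was at 22.8, 50.9, 29.9 and 0.506 CPM in gated neurons and 0.521, 0.691, 0.289 and 0.0290 CPM in the others. In cells thinned to 2000 UMIs it was found in 3.71, 9.82, 5.71 and 0% of gated neurons and 0, 1.27, 0.248 and 0% of microglia, and the 0 in the adult allows up to 0.502% of cells with a UMI at that depth (upper Clopper-Pearson bound), which does not limit the share of cells with the transcript. The log2 difference from P10 to the adult was -5.89 (95% interval -7.34 to -4.76). Trh, the thyrotropin-releasing hormone gene, peaked at P10 with 3.102, 21.4, 65.3 and 4.63 CPM, against 0.209, 1.36, 1.26 and 0.334 CPM in other glutamatergic neurons. Slc17a8, the transporter VGLUT3, was at 1.73, 29.6, 66.9 and 8.85 CPM, highest at P10, and in the adult it was at 0.561 CPM in the retained clusters and 0.598 CPM without near-projecting cells. Kitl and Nts were at 544, 487, 219.5 and 52.0 CPM and 260.2, 206, 47.7 and 14.6 CPM, highest at P1 and lower at each later age, and both were above the other glutamatergic neurons at P1, at 103 and 13.2 CPM. In the retained clusters, Slc6a4 was at 41.2, 74.8, 34.4 and 0.449 CPM and Trh at 4.24, 24.5, 70.2 and 1.79 CPM, so there too Slc6a4 was highest at P4 and lowest in the adult and Trh was highest at P10.

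Other secreted factors went in both directions. In the adult against P4, 5 of 13 neuropeptide and ligand genes were at least 2-fold higher and 4 lower (median log2 difference 0.69), against 14.3 and 18.2% of all genes. Bdnf was under 20 CPM at P4 and entered through the adult, so it had to be higher there. Nptx1, a pentraxin that gathers AMPA receptors, was at 70.3, 127, 330.1 and 1008 CPM and exceeded the 6.82, 6.33, 27.6 and 353 CPM of other glutamatergic neurons. Cck, the cholecystokinin gene, was at 59.6, 101, 161 and 241 CPM against 97.7, 173, 991 and 1718 CPM, and Bdnf at 1.62, 1.75, 8.65 and 23.6 CPM against 2.94, 8.46, 88.7 and 165 CPM, so both were lower in gated neurons in all 4 libraries. In the retained clusters Cck was at 82.7, 106, 98.9 and 154 CPM, without the 2-fold difference between P4 and the adult. Genes of neuronal activity, which tissue dissociation also induces, differed between the ages. Of the 13 at 20 CPM or more at P4 or in the adult, 8 reached it only in the adult, so they had to be higher there and no count is read from the list. Of the 5 others, Fosl2 was at 53.9, 30.9, 9.85 and 12.8 CPM, Jun at 29.8, 30.3, 39.1 and 94.0 CPM, Jund at 167, 122, 132 and 146 CPM and Nr4a1 at 9.87, 24.7, 38.4 and 96.5 CPM. Egr1 was at 6.15, 52.1, 186 and 696 CPM and Arc at 0.477, 1.65, 11.6 and 138 CPM, and in other glutamatergic neurons Egr1 was at 2.68, 25.6, 256 and 577 CPM. The methods state that Actinomycin D was in the solution that received the brain slices before digestion. The part of dissociation in these values was not tested.

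**Figure D5:**
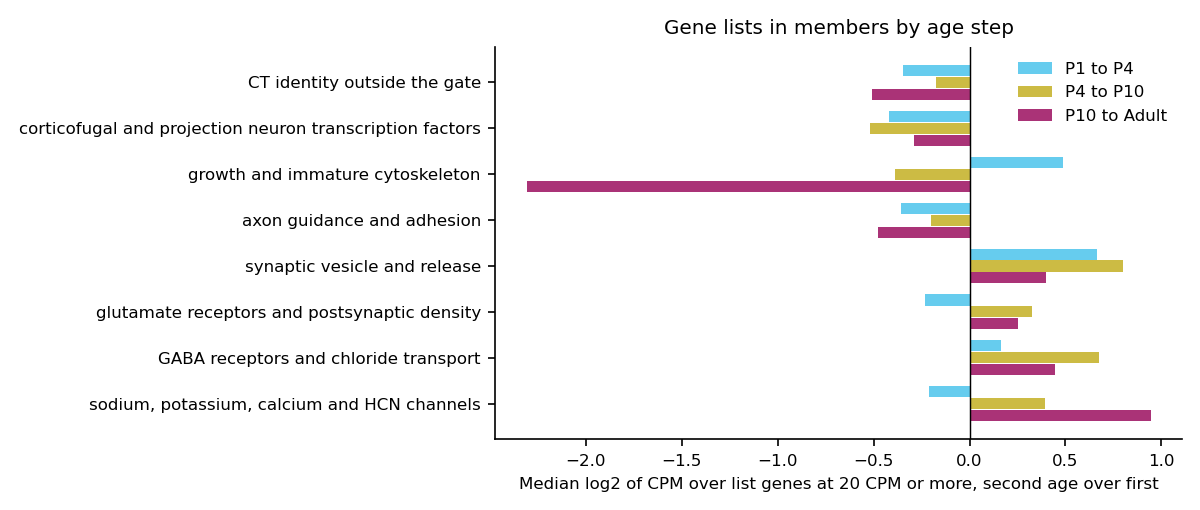
Median log2 difference in CPM over the genes of each list at 20 CPM or more (x axis) in gated neurons (members), for each step between neighbouring ages (bars by colour). The list of growth and immature cytoskeleton genes stands at -2.31 from P10 to the adult, and the list of synaptic vesicle genes stands above 0 in all 3 steps.

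Over all gated neurons, marker transcripts of oligodendrocytes, microglia and astrocytes were higher in the adult than at P4, with median log2 differences of 5.78, 2.77 and 1.75. In the retained clusters these were 2.36, -0.020 and 2.92. The adult cluster with Cx3cr1 and Csf1r among its leading genes was left out there, so nothing is concluded from the microglia value. The summed level of the 10 oligodendrocyte lineage genes was 72.4, 96.1, 135 and 766 CPM in gated neurons and 67.2, 158, 218 and 749 CPM in other glutamatergic neurons. For the 8 microglia genes it was 51.8, 65.1, 125 and 255 CPM, against 18435, 13792, 17237 and 23124 CPM in microglia. The 8 astrocyte genes summed to 163, 367, 1483 and 2239.7 CPM, and most of that was Slc1a2, at 88.5, 192, 1245 and 1914 CPM. The defining oligodendrocyte genes Mog and Mobp were at 0.0989 and 0.0330 CPM at P4 and 13.1 and 35.4 CPM in the adult. The vascular and blood genes summed to 127, 108, 86.7 and 129.8 CPM, the interneuron genes to 103, 125, 96.2 and 114 CPM and the progenitor and proliferation genes to 106, 52.4, 26.8 and 14.998 CPM, so the first 2 sums had no steady order by age and the last was lower at each later age. The part of such transcripts in the other age differences was not tested beyond the values without these cells.

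The near-projecting genes depended on which cells were kept. Tshz2 was at 82.2, 111, 31.7 and 105 CPM over all gated neurons but at 5.56, 9.77, 8.63 and 48.9 CPM in the retained clusters. By the genes Tshz2, Trhr, Lypd1 and Vwc2l, at 3 or more per 10000 with at least 2 detected, 138, 236, 109 and 123 gated neurons had a near-projecting profile, or 6.32, 8.45, 6.22 and 16.7%. By this gate the adult share was the highest, with a 95% Clopper-Pearson interval for counting error of 14.1 to 19.6. By the clusters led by near-projecting genes the shares were 7.32, 13.1, 2.91 and 7.07%, highest at P4. Pou3f1 likewise was at 54.8, 53.1, 17.9 and 9.44 CPM over all gated neurons and at 3.56, 8.82, 4.55 and 2.58 CPM in the retained clusters. Tle4, Sema5a and Drd1 were in those clusters at 1064, 892, 667 and 442 CPM, 107, 159, 424 and 694 CPM and 73.7, 79.7, 54.2 and 38.5 CPM, so their order by age was the same there. With the P1 cluster led by Otof and Dkk3 included, the P1 values were 1142, 124 and 67.9 CPM, and Tshz2 was at 63.9 CPM at P1. The P1 levels of Kitl, Nts, Crym, Sema3e and Nptx1 were over 1.5 times higher in the retained clusters than over all gated neurons, at 1013, 423, 203, 31.3 and 110.4 CPM, but with the P1 cluster led by Otof and Dkk3 included they were within that factor, at 731, 355, 155, 25.8 and 89.2 CPM. Those of Igfbpl1, Robo1, Cdh4, Kcna2 and Grin2a, among others, were over 1.5 times lower without that cluster, at 126, 227, 52.5, 5.76 and 9.88 CPM, and within that factor with it, at 266, 354, 103, 12.2 and 15.4 CPM. Other named genes were over 1.5 times lower in the retained clusters at later ages, among them Bdnf with 0.614 CPM at P4 and 3.77 CPM at P10, Kcnj4 and Cdh4 with 3.80 and 36.2 CPM at P4, and Cacna1g with 10.4 CPM in the adult.

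Among the gated neurons of 1 library, the 10 genes with the most variance over their mean included several of blood and of other cell types, and at P1 also Ptprd, Pex5l, Mgat4c, Tenm2 and Kcnip4. In cells thinned to 2000 UMIs, Hba-a1, a haemoglobin gene, had a variance of 60.0 times its mean at P1 and was found in 0.824% of cells. In the adult, the immunoglobulin gene Igkc had 199 times its mean and was found in 1.36% of cells. Igkc was also the gene with the largest ratio from P10 to the adult, at 0.0308 and 156 CPM, and it led the near-projecting cluster of the adult. It was at 149.7 CPM in adult microglia. Nts, the gene of the cluster described above, was among the 10 highest genes at P4, with a variance of 7.04 times its mean.

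Other genes with the largest ratios described the last step further. From P10 to the adult, Scn4b, Hapln4 (a link protein of perineuronal matrix) and Krt80 were at 0.185, 0.400 and 0.308 CPM at P10 and at 58.0, 63.7 and 41.6 CPM in the adult. Cntnap1, which encodes the paranodal protein Caspr, was at 0.220, 0.528, 19.7 and 187 CPM. Mkrn3, an imprinted ubiquitin ligase gene, was at 20.7, 28.4, 37.5 and 0.0843 CPM, and Trim67 at 146, 155, 49.1 and 0.590 CPM, so both were near the level of single UMIs in the adult. Igfbpl1 and Draxin, the latter encoding a secreted repellent of axons, had the largest falls from P4 to P10 and were at 259, 88.2, 4.52 and 0.0843 CPM and 107, 63.7, 6.00 and 0.169 CPM.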

How the data were processed

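The authors dissociated the prefrontal cortex, captured cells on the BD Rhapsody system and deposited 1 table of UMI counts per library, made with the BD Rhapsody WTA Analysis Pipeline on GRCm38 with GENCODE annotation. The methods name version 1.11. The file headers name 1.11 for P1, with intronic reads kept and the library name P0 in place of P1, and 1.8 for P4, P10 and adult. The deposited counts are raw, with 200198548 to 340724049 UMIs per library. Cells needed at least 1000 UMIs, 1000 genes and at most 15% mitochondrial UMIs. A gene not listed in a file was taken as 0.

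UMIs were summed over the cells of a class in each library and divided by the total without mitochondrial and ribosomal protein genes (CPM). Ratios have exact conditional binomial intervals, shares have Clopper-Pearson intervals, both at 95%, and a gene without a UMI was set at a floor of 3 UMIs over the class. Cells of 1 library are not replicates, so no test was made. Shares of cells with a UMI were taken after thinning to 2000 UMIs. Gated neurons were clustered within each library with scanpy 1.11.5 (Leiden, resolution 0.5, 2000 variable genes, 30 components, 20 neighbours), and Scrublet ran with an expected rate of 0.06. Scripts ran in Python 3.11.15 and were tested on simulated data. Class names of clusters, the near-projecting gate and 4 alternatives were chosen after seeing the data. The members and the 22 gene lists were chosen with earlier results of these data known.

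Named genes were those of the rule, the markers and the lists, the 10 largest rises and falls of each age comparison at 20 CPM or more, the 15 highest and 15 lowest of members over other glutamatergic neurons ranked by the ratio nearest to 1, and the 10 with the highest variance over mean in each library. Leading genes of clusters were named after they were seen. Some genes that this rule names are not reported here. Gene positions come from the GENCODE annotation of GRCm38 given for reference. Alternatives changed the gate, the Ctgf condition, the cell filter, doublets, glial cells, the level minimum, the scaling and the averaging.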

Additional observations from a re-analysis of the deposited data

Results flagged for a closer look

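In the gated neurons, 5 of the named genes that were searched ran with age in the opposite direction to the other glutamatergic neurons of the same libraries, by at least 2-fold each way from P1 to the adult. Only genes picked for this report were searched, and the number over all genes was not counted. With 1 library per age this difference between the groups was not tested, and it involves the P1 library, so the values from P4 to the adult are given beside it.

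Rprm was higher in the adult gated neurons than at P1, with a log2 difference of 1.05, and lower in the other glutamatergic neurons, at -2.62. From P4 to the adult these were 0.67 and -3.48. Sema5a had log2 differences of 2.23 and -1.36, and from P4 to the adult of 2.07 and -0.77. Rnf152, which encodes a ubiquitin ligase, had 1.011 and -2.66, and from P4 to the adult 0.15 and -2.62, so without the P1 library the level in gated neurons was close to even. Grin3a ran the other way, with -1.34 in gated neurons and 1.07 in the others, and -2.48 and 0.25 from P4 to the adult. Cacna1g had -1.05 and 1.66, and -2.18 and 0.10 from P4 to the adult.

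Under the alternatives, 4 of the 5 came under 2-fold from P1 to the adult in gated neurons in some settings. Rprm was at 0.92 with a gate score minimum of 2 and 0.95 with Ctgf-positive cells kept. Rnf152 came under 2-fold in 10 of 19 settings, at 0.81 to 0.997. Grin3a did so in 4, at -0.86 to -0.64, and Cacna1g in 3, at -0.89 to -0.69. Sema5a stayed past 2-fold in all 19.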

How the results depend on the processing

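No paired analysis was possible because each age has 1 library, so the shared replicate number 1 pairs nothing and no result comes from a test. No replicate could be left out for the same reason, and the comparison of P4 with the adult is the one without the P1 library. The depth of the gated neurons limits genes under about 20 CPM, most in the adult, where a gene without a UMI could still be at the level of 3 UMIs. The last 4 settings named here, which leave out near-projecting cells, these with Scrublet-marked and glial cells, or all but the retained clusters, and a further one that adds the P1 cluster led by Otof and Dkk3 to the retained clusters, were chosen after seeing the data. Over the settings below, the share of gated neurons was lower in the adult than at P1 in each. With a gate score minimum of 5, the share was 21.7, 17.8, 17.6 and 9.20% of Neurod-positive, Gad-low cells and 17.1, 13.05, 10.7 and 4.71% of all cells that passed. With a minimum of 2, the share was 25.6, 21.5 and 11.03% (P1, P4 and the adult) of Neurod-positive, Gad-low cells and 20.1, 15.8 and 5.64% (P1, P4 and the adult) of all cells that passed. With all 3 gate genes detected, the share was 16.96, 12.9, 16.3 and 7.62% of Neurod-positive, Gad-low cells and 13.4, 9.44, 9.86 and 3.90% of all cells that passed. With Ctgf-positive cells kept, the share was 26.2, 22.3, 24.3 and 18.6% of Neurod-positive, Gad-low cells and 20.6, 16.4, 14.7 and 9.49% of all cells that passed. With the gate applied to cells thinned to 2000 UMIs, the share was 13.8, 11.99, 13.4 and 6.98% of Neurod-positive, Gad-low cells and 10.3, 8.24, 6.29 and 2.24% of all cells that passed. Without cells with glial, vascular or microglial genes, the share was 21.4, 21.4 and 11.2% (P4, P10 and the adult) of Neurod-positive, Gad-low cells and 19.8, 16.6, 16.1 and 8.17% of all cells that passed. With Neurod2 and Neurod6 at 2 or more per 10000, the share was 20.1 and 10.9% (P10 and the adult) of Neurod-positive, Gad-low cells and 4.77% (the adult) of all cells that passed. With the stricter cell filter, the share was 12.05 and 5.78% (P10 and the adult) of all cells that passed. Without near-projecting cells, the share was 22.5, 18.4, 17.8 and 8.49% of Neurod-positive, Gad-low cells and 17.7, 13.4, 10.8 and 4.34% of all cells that passed. Without near-projecting, Scrublet-marked and glial cells, the share was 22.4, 19.02 and 9.21% (P1, P4 and the adult) of Neurod-positive, Gad-low cells and 18.2, 15.03 and 6.78% (P1, P10 and the adult) of all cells that passed. In the retained clusters, the share was 12.7, 14.2, 15.5 and 7.87% of Neurod-positive, Gad-low cells and 9.97, 10.4, 9.37 and 4.02% of all cells that passed. With that P1 cluster added, the P1 shares were 17.5 and 13.8%, which turns the order of the P1, P4 and P10 shares of Neurod-positive, Gad-low cells.

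The number of genes past 2-fold followed the level minimum. At 5 CPM, 497, 570 and 987 genes were higher and 1104, 604 and 1074 lower in the 3 steps in order of age. At 100 CPM these were 103, 150 and 259 and 167, 75 and 225, with 567 higher and 512 lower from P4 to the adult and 697 and 754 from P1 to the adult. Against other glutamatergic neurons, 441, 303, 352 and 324 genes were higher and 254, 306, 561 and 590 lower in the 4 libraries at 5 CPM, and 104, 69, 76 and 82 and 55, 49, 83 and 93 at 100 CPM. Fewer or more genes enter by construction. With the mean of per-cell CPM, 278, 527 and 626 genes were lower in gated neurons at P4, at P10 and in the adult. In the retained clusters, 306 genes were lower at P1, or 260 with the P1 cluster led by Otof and Dkk3 added, and 282 at P4. The cause of these was not tested.

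The signs of a few values that were at least 2-fold in the main setting turned. Turns of smaller values were not counted. Trhr from P4 to P10 was at a log2 difference of 0.21 with Ctgf-positive cells kept and 0.10 in the retained clusters, where Lypd1 from P1 to P4 was at -0.21. Against other glutamatergic neurons, Tshz2 was in those clusters at -1.74 at P1 and -1.89 at P4, and at -0.017 at P4 without near-projecting cells. Lypd1 at P4 was at -0.063 without near-projecting cells, -0.024 without near-projecting, Scrublet-marked and glial cells and -0.25 in the retained clusters. Trhr was at -0.27 at P4 in those clusters and, in the adult, at -0.38 without near-projecting cells and -0.61 without near-projecting, Scrublet-marked and glial cells. These are genes of the near-projecting list. The settings without near-projecting cells and with the retained clusters remove them by construction, while the cause for Trhr with Ctgf-positive cells kept was not tested. At P1, Grin3a was at -0.40 with the thinned gate and -0.26 in the retained clusters, and Pcp4 in those at -0.71, which with the P1 cluster led by Otof and Dkk3 added became -0.035 and -0.59, and the cause was not tested. The median of the microglia list from P4 to the adult was at -0.063 without cells with glial, vascular or microglial genes, -0.10 without near-projecting, Scrublet-marked and glial cells and -0.020 in the retained clusters. These settings remove cells with microglia genes by construction. Of 529 differences of at least 2-fold in named genes, each under 19 settings, 219 of 10051 values came under 2-fold, 33 of them in the retained clusters and 31 with the thinned gate. Of 1460 list medians under these settings, 4 that were at least 2-fold in the main setting turned. All were of the microglia list, with the same value with or without the added P1 cluster. Smaller medians also changed sign without being counted. That of the layer 5 pyramidal tract list from P1 to the adult was -0.90 over all gated neurons and 0.41 in the retained clusters.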
